A study of Drosophila melanogaster with 2 samples.

Results

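This account covers 281 H3K27ac peaks at the ends of long noncoding RNA (lncRNA) genes in the pupal wing of Drosophila melanogaster. They are the replicate 1 peaks that overlap a replicate 2 peak by 1 bp or more and have their summit within 500 bp of a lncRNA gene end and more than 500 bp from every protein-coding gene end. Only the autosomal arms 2L, 2R, 3L, 3R and 4 were used, where 10808 peaks were shared by the replicates, so the 281 peaks are 2.60% of them. The tissue was wings of male pupae of the transgenic line D2 at 67% of pupal development, with 35 to 45 wings pooled in each of 2 biological replicates. Both replicates carry the D2 transgene and form 1 group, with no untreated or wild-type comparison. H3K27ac was mapped by CUT&RUN, in which an antibody directs a nuclease to the marked chromatin and the released fragments are sequenced. Because there is 1 group and peaks are not replicates of it, the results are descriptions of the 2 peak lists, without tests between classes of peaks.

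H3K27ac is the acetylation of lysine 27 of histone H3. In flies it is placed by the acetyltransferase CBP, encoded by nejire, and it is found at active promoters and enhancers. A lncRNA is a transcript without a recognised protein product, and many fly lncRNA genes are known only by a CR number and have no described function. Some serve as precursors of microRNAs or of small nucleolar RNAs, and others lie within introns of protein-coding genes or between them. Because enhancers are themselves often transcribed, a marked lncRNA end may be a promoter, an enhancer or a place where the annotation meets either, and without strand or exons in the annotation these were not separated. No sequences are shown, since no genome of the build was used here.

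Of the whole lists, replicate 1 held 14461 peaks and replicate 2 held 26420. Solving each peak's fold and p-value for its fragments gave a most frequent background of 13.8 fragments in replicate 1 (16.2% of peaks). In replicate 2 it was 27.1 fragments (20.1% of peaks), and replicate 2 is called the deeper list on this ground. Fragments were not marked with molecular identifiers in the sources used here, so intervals on them cover counting error only. All 8 wing genes of the tissue check (vg, nub, ap, rn, wg, Dll, bi and ds) held a shared peak. The defining neuronal genes (0 of 4) and hemocyte genes (0 of 4) held none. Muscle (1 of 4, Mlc2), fat body (1 of 3, Lsp2), trachea (1 of 2, trh), glia (1 of 2, moody) and germline (1 of 2, vas) each had 1 gene with a shared peak. The germline gene nos was planned but not matched in the annotation. A shared summit anywhere in a gene or within 500 bp of it counted, and ds held 15 and nub 9. No share over all genes was had for this count, and gene length was not matched. The counts alone therefore do not identify the tissue. Height did not set the wing genes apart. The highest folds in replicates 1 and 2 were 3.61 and 3.43 at trh and 3.17 and 3.89 at vas. At vg they were 2.33 and 2.52, and at wg 3.30 and 3.02. Wings are a mixture of cells, and a mark in few cells cannot be told apart from a weaker mark in many.

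The 281 peaks lay at 262 of the 1718 autosomal lncRNA genes (15.3%, exact binomial interval 13.6 to 17.0%). The interval does not cover the choice of list: the share was 30.2%, from 582 peaks, with replicate 2 alone, and 6.93%, from 124 peaks, with equal numbers of top peaks from each list. By arm, 81 lay on 3L, 72 on 2L, 67 on 3R, 60 on 2R and 1 on 4. In that order, these were 2.86%, 3.19%, 2.21%, 2.29% and 1.39% of the shared peaks of each arm. The arms hold 448, 526, 430, 300 and 14 lncRNA genes, in the same order. A shared summit of any kind, including those that also lie near a protein-coding gene, stood within 500 bp of an end of 337 lncRNA genes (19.6%). The same count for protein-coding genes was 4175 of 11725 (35.6%). Of the peaks, 264 lay at 1 lncRNA gene, 16 at 2 and 1 at 3 (lncRNA:CR45253, lncRNA:CR45254 and lncRNA:CR45255). Conversely, 227 lncRNA genes had 1 such peak, 33 had 2 and 2 had 3.

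Before the overlap with replicate 2 was required, 339 replicate 1 peaks lay at lncRNA ends alone, and 82.9% of them (interval 78.5 to 86.7%) overlapped a replicate 2 peak. Over all 13091 autosomal peaks of replicate 1 the share was 82.6%. It was 86.3% for peaks at protein-coding ends alone and 80.9% for peaks at neither kind of end, so the lncRNA-end peaks sat between these classes and their interval covered the share of all peaks. The 58 lncRNA-end peaks without a partner were low and narrow, with a median fold enrichment of 2.15, a median percentile of 23.5 within replicate 1 and a median width of 192 bp. Unpaired peaks of the other classes were not summarised, so this is not shown to be particular to lncRNA ends. The replicates placed most summits close together. The median shift between the summits of a pair was 52 bp, and 69.4% of pairs lay within 100 bp of each other. Across all shared peaks the values were 63 bp and 63.6%. By the summit of replicate 2, 259 of the 281 peaks (92.2%) still lay at a lncRNA end alone, 15 lay at neither kind of end, 6 lay at both kinds and 1 lay at a protein-coding end.

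In height, the lncRNA-end peaks were ordinary among shared peaks. Their fold enrichment, the ratio of the summit pileup to the background estimated by the peak caller, had a median of 2.46 in replicate 1 (quartiles 2.16 and 2.80, range 1.64 to 4.50). In replicate 2 the overlapping peak had a median of 2.35 (quartiles 2.08 and 2.68, range 1.54 to 4.47). All shared autosomal peaks had medians of 2.50 and 2.29, peaks at protein-coding ends alone 2.63 and 2.33, and peaks at neither kind of end 2.44 and 2.27. The lncRNA-end peaks were thus below protein-coding ends in replicate 1 and level with them in replicate 2, a difference in order that the replicates do not share. As a description across the 281 pairs of the same 2 libraries, Spearman's correlation of their folds was 0.60, against 0.52 across all shared peaks. The folds of 8 of these pairs differed by more than 1.5 times, a count given for the lncRNA-end peaks alone.

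**Figure D1:**
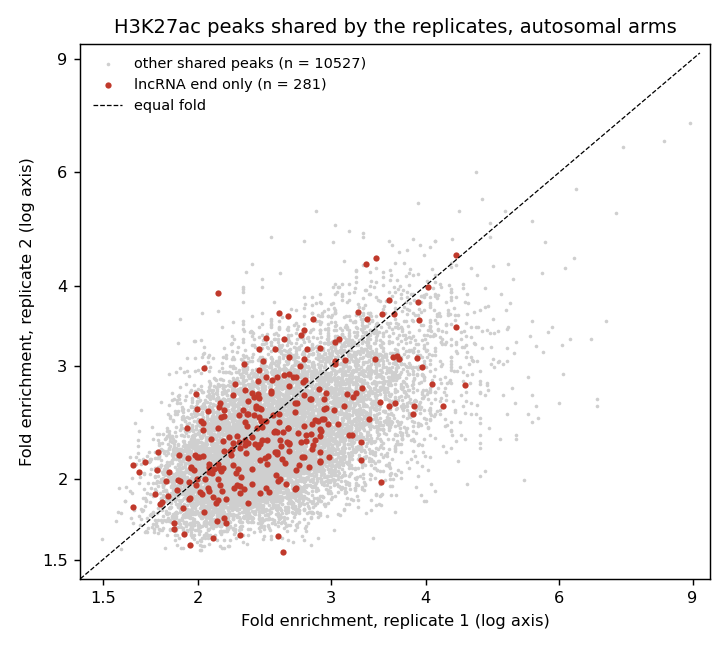
Fold enrichment of each shared autosomal peak in replicate 1 (horizontal) and replicate 2 (vertical), both on log axes, with the 281 lncRNA-end peaks in red and the other shared peaks in grey. The red points lie within the grey cloud, from 1.64 to 4.50 in replicate 1 and from 1.54 to 4.47 in replicate 2.

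The fold depends on the local background, and by fragments at the summit the lncRNA-end peaks ranked higher. The recovered pileup had a median of 60 fragments in replicate 1 (range 32 to 127) and 90 in replicate 2 (range 55 to 176). The corresponding medians were 53 and 87 at protein-coding ends alone, and 55 and 86 at neither kind of end. Within the lists, the median percentile of the pileup of lncRNA-end peaks was 66.7 in replicate 1 and 78.3 in replicate 2, against 52.6 and 74.7 at protein-coding ends alone. The background beneath them was also higher in replicate 1, with a median of 23.5 fragments against 18.4 at protein-coding ends alone and 21.2 at neither kind of end. In replicate 2 the backgrounds were close, at 37.6, 36.8 and 36.5 fragments. A pileup of 60 fragments has an exact Poisson interval of 45.8 to 77.2 and one of 90 fragments an interval of 72.4 to 111, which cover counting error only, so single peaks near the median cannot be ranked.

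**Figure D2:**
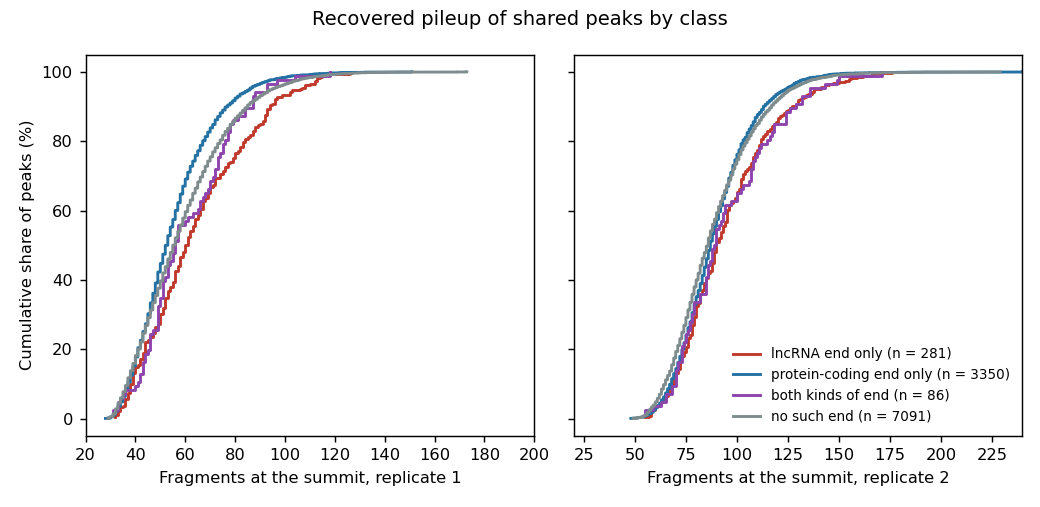
Cumulative share of shared autosomal peaks (percent) by the number of fragments at the summit, for replicate 1 (left) and replicate 2 (right), with 1 line per class of peak. The median of lncRNA-end peaks is 60 fragments in replicate 1, against 53 at protein-coding ends alone, and 90 against 87 in replicate 2.

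The median width of the lncRNA-end peaks was 324 bp in replicate 1 (quartiles 218 and 492), against 331 bp at protein-coding ends alone and 302 bp at neither kind of end. In replicate 2 the overlapping peaks had a median width of 335 bp, against 385 and 335 bp. Together the 281 peaks covered 110 kb in replicate 1. The widest, at lncRNA:CR45565, spanned 1849 bp in replicate 1 and 929 bp in replicate 2. The next widest, at lncRNA:CR44268, lncRNA:CR44720, lncRNA:CR43436 and lncRNA:CR45681, spanned 1688, 1282, 1163 and 1101 bp in replicate 1 and 396, 354, 353 and 797 bp in replicate 2. These 5 were chosen for their replicate 1 width, and the peaks at lncRNA:CR45565, lncRNA:CR44268 and lncRNA:CR43436 overlapped 2 replicate 2 peaks each, of which the width of the one with the higher fold is given.

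In both lists, 20 of the 281 peaks (7.12%) were among the top 10% by fold, compared with 7.34% of all shared peaks. By the lower of its 2 percentiles, the highest was at lncRNA:CR45565 (3R:31689081-31690929), between protein-coding genes and 9587 bp from the nearest end, that of CG11550. Its fold was 4.38 in replicate 1 and 4.47 in replicate 2, from 127 and 166 fragments over backgrounds of 28.2 and 36.4. Both replicates placed it within the top 2% of their list, at percentiles of 98.8 and 99.8. The peak at lncRNA:CR45179 (3L:16689334-16689849) lay within CG43954 and Lasp, which encodes an actin-binding LIM and SH3 protein, and had folds of 4.38 and 3.45. At lncRNA:CR44727 (2L:14234644-14234961), 635 bp from the kinase gene Dyrk2, the folds were 4.03 and 3.98 and the summit lay 7 bp from the lncRNA end.

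Several of the highest peaks stood between protein-coding genes, 3566 to 32111 bp from the nearest end. The peak at lncRNA:CR43635 (3R:5045362-5045774) was 32111 bp from corto, a gene for a chromatin factor, and had folds of 3.63 and 3.62. A peak at lncRNA:CR45098 (3L:13218315-13218710), 10161 bp from caps, which encodes the leucine-rich repeat adhesion protein Capricious, had 3.91 and 3.53. Near ham, the zinc finger gene hamlet, the peak at lncRNA:CR44904 (2L:18796001-18796584) had 3.44 in replicate 1 and 4.41 in replicate 2. These 3 peaks were high in both lists, with the lower of their percentiles between 93.0 and 97.2. At lncRNA:CR44720 (3L:11273209-11274490), 13672 bp from Dyro, the folds were 3.96 and 2.99.

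Others of the 20 lay inside protein-coding genes. Within mbl, which encodes the splicing regulator Muscleblind, the peak at lncRNA:CR45997 (2R:17261692-17262489) had folds of 3.66 and 3.11, from 93 and 122 fragments. Within plum, a gene of the immunoglobulin superfamily, lncRNA:CR45226 (3R:26521843-26522447) had 3.50 and 3.62. The peak at lncRNA:CR44611 (2L:7079042-7079386) lay in Pvf2, a gene for a ligand of the PDGF and VEGF receptor family, and had 3.62 and 3.10. The list medians were 2.43 and 2.07, and that all 3 stood above them follows from their choice among the 20 highest. In sm, the hnRNP L-like gene smooth, lncRNA:CR44474 (2R:19604737-19605542) had 4.08 in replicate 1 and 2.81 in replicate 2. The largest fold of replicate 1, 4.50 at lncRNA:CR43927 (2L:22750947-22751926) within CG40006, was 2.80 in replicate 2. The largest pileup of replicate 2, 176 fragments at lncRNA:CR44334 (3R:7312948-7313342) near CG10029, gave a fold of 4.32 there and of 3.34 in replicate 1.

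The remaining peaks of the 20 were at lncRNA:CR45234, lncRNA:CR44268, lncRNA:CR44845, lncRNA:CR44719, lncRNA:CR44363, lncRNA:CR44043 and lncRNA:CR44627. Their folds ran from 3.30 to 3.91 in replicate 1 and from 2.77 to 3.80 in replicate 2. Of these, lncRNA:CR44719 lay 814 bp from the ionotropic receptor gene Ir68a. The neighbours of the 20 peaks were named for position alone, and the files do not show which gene, if any, a peak acts on.

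**Figure D3:**
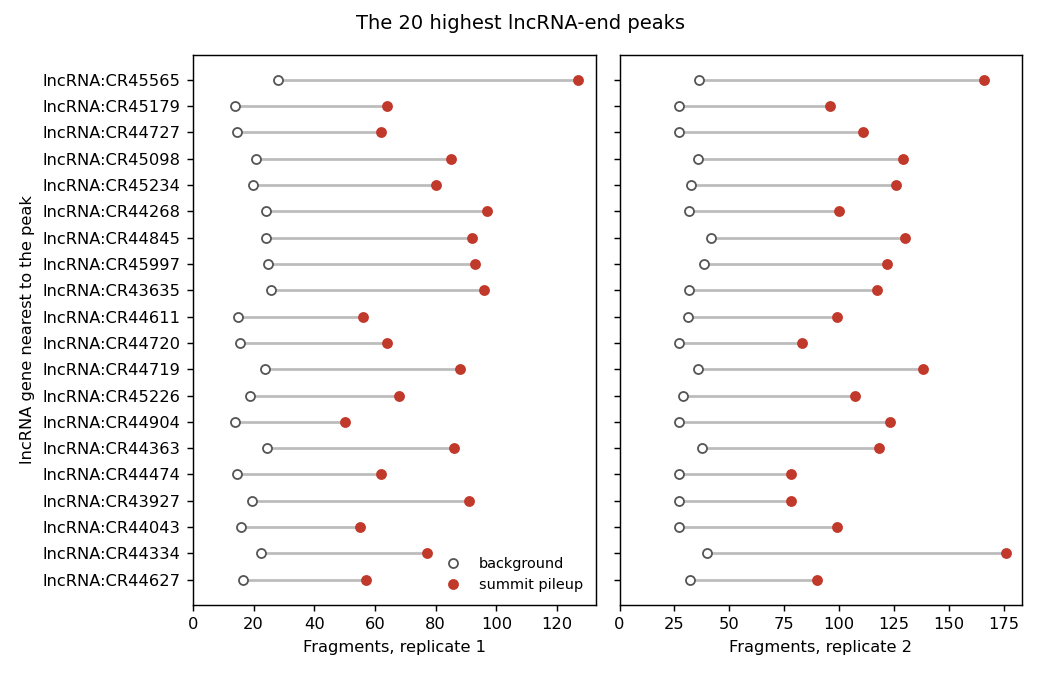
Fragments at the summit (red) and in the local background (open circles) of the 20 lncRNA-end peaks in the top 10% of both lists, by fold, with replicate 1 left and replicate 2 right, ordered by the lower of the 2 percentiles. Backgrounds span 13.8 to 28.2 fragments in replicate 1 and 27.1 to 41.5 in replicate 2, and the highest pileups are 127 at lncRNA:CR45565 and 176 at lncRNA:CR44334.

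The next comparison asked where the peaks lie relative to protein-coding genes. Only 91 of the 281 summits (32.4%, exact interval 26.9 to 38.2%) lay inside a protein-coding gene, against 5531 of the 7091 shared summits at neither kind of end (78.0%, interval 77.0 to 79.0%). The sequence available to the classes differed in the same direction: of 2.28 Mb within reach of a lncRNA end alone 0.651 Mb lay inside protein-coding genes, and of 91.0 Mb near neither kind of end 60.7 Mb did. Heights by fold did not separate the locations in replicate 1, with medians of 2.46 for the 91 peaks inside genes and 2.46 for the 190 peaks between them. In replicate 2 the medians were 2.29 and 2.39. Peaks inside genes had a median width of 373 bp and those between genes 297 bp.

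Set against the available sequence, shared summits were denser near lncRNA ends than elsewhere away from protein-coding ends. Between protein-coding genes there were 116 shared summits per Mb within 500 bp of a lncRNA end (exact Poisson interval 101 to 134) and 51.4 per Mb beyond it (48.9 to 54.0). Inside protein-coding genes the densities were 140 (112 to 172) and 91.2 per Mb (88.8 to 93.6). Around protein-coding ends alone the density was 204 per Mb (198 to 211). The intervals near and beyond lncRNA ends did not meet in either location, but they cover counting error only and neighbouring summits are not independent. Every base of the arms was counted, without leaving out sequence where peaks can hardly be called, such as repeats. The part of such sequence in these densities was not tested.

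Between protein-coding genes the density was lower in each interval beyond 1000 bp than in those nearer, with no step at 500 bp, while inside them it followed no steady order. Between protein-coding genes it was 131 per Mb within 100 bp of a lncRNA end and 96.3 to 125 in the next 4 intervals of 100 bp. Further out it was 101 per Mb from 500 to 1000 bp, 83.3 from 1000 to 2000 bp, 74.7 from 2000 to 5000 bp, 68.4 from 5000 to 10000 bp and 40.3 beyond 10000 bp. Inside protein-coding genes it was 122, 113 and 106 per Mb in the first 3 intervals of 100 bp, then 214 and 169. Further out it was 149 from 500 to 1000 bp, 125 from 1000 to 2000 bp, 98.6 from 2000 to 5000 bp, 104 from 5000 to 10000 bp and 88.1 beyond 10000 bp. In neither location did the limit of 500 bp coincide with a break in these values.

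**Figure D4:**
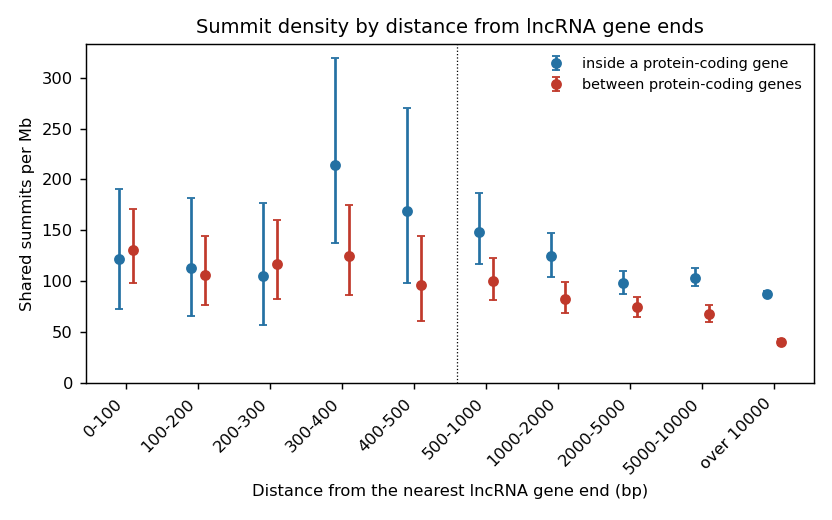
Shared summits per Mb of autosomal sequence more than 500 bp from protein-coding ends, by distance from the nearest lncRNA gene end, inside (blue) and between (red) protein-coding genes, with exact Poisson intervals. Points left of the dotted line hold the 281 peaks, and the red points run from 131 per Mb in the first interval to 40.3 per Mb in the last.

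The peaks nearest the limits are given as a description. Just inside the lncRNA limit were peaks at lncRNA:CR44146 (499 bp, folds 2.14 and 2.62), lncRNA:CR44725 (499 bp, 1.88 and 1.99) and lncRNA:CR44974 (497 bp, 3.49 and 1.98). Just outside were peaks 501 bp from lncRNA:CR44522 (3.49 and 2.90), 503 bp from lncRNA:CR44868 (2.07 and 1.84) and 505 bp from lncRNA:CR45379 (2.23 and 2.20). At the protein-coding limit, the members closest to a gene end were at 508 bp from CG14186 (2.77 and 3.41), 512 bp from CG10660 (2.41 and 2.50) and 514 bp from Atg9 (2.16 and 2.50). Peaks left out there lay 477 bp from Hpd (2.83 and 1.95), 470 bp from ds (2.88 and 2.50) and 470 bp from jing (2.89 and 2.49).

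Within the lncRNA windows, 155 summits lay inside a lncRNA gene and 126 outside any, at 149 per Mb (interval 127 to 174) and 101 per Mb (84.5 to 121) of the sequence available to each. The median folds were 2.50 and 2.40 for summits inside and 2.42 and 2.28 for those outside, in replicates 1 and 2. By coordinate, 144 peaks lay nearest to the left end of their lncRNA and 137 to the right end. Without strand, these ends are not start and termination sites. The median distance to the lncRNA end was 240 bp (quartiles 94 and 346).

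Distance to the nearest protein-coding end ranged from 508 to 39418 bp, with a median of 3348 bp, against 3651 bp for shared peaks at neither kind of end. The 43 peaks within 1000 bp of such an end had median folds of 2.54 and 2.50, and the 56 peaks from there to 2000 bp had 2.53 and 2.26. Further out the medians were 2.41 and 2.30 for 75 peaks up to 5000 bp, 2.44 and 2.30 for 49 up to 10000 bp and 2.48 and 2.36 for the 58 beyond. The peaks nearest to a protein-coding end had the highest median in both replicates, and the order of the other intervals differed between them. The nearest protein-coding gene itself had a shared summit within 500 bp of an end in 90 of 281 cases (32.0%), compared with 35.6% of all autosomal protein-coding genes and with 36.1% at peaks near neither kind of end. The share was near both of these background values.

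Among lncRNA genes, the share with such a peak was similar inside and between protein-coding genes. Of the genes with neither end near a protein-coding end, 65 of 365 nested in a protein-coding gene (17.8%, exact interval 14.0 to 22.1%) and 153 of 929 between genes (16.5%, interval 14.1 to 19.0%) had one. By length, the shares were 14.0% of 394 genes of up to 500 bp, 16.6% of 561 genes of over 500 to 1000 bp, 18.8% of 223 genes of over 1000 to 2000 bp and 21.9% of 128 genes over 2000 bp. The intervals of the shortest and longest classes overlapped (10.7 to 17.8% and 15.1 to 30.0%).

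**Figure D5:**
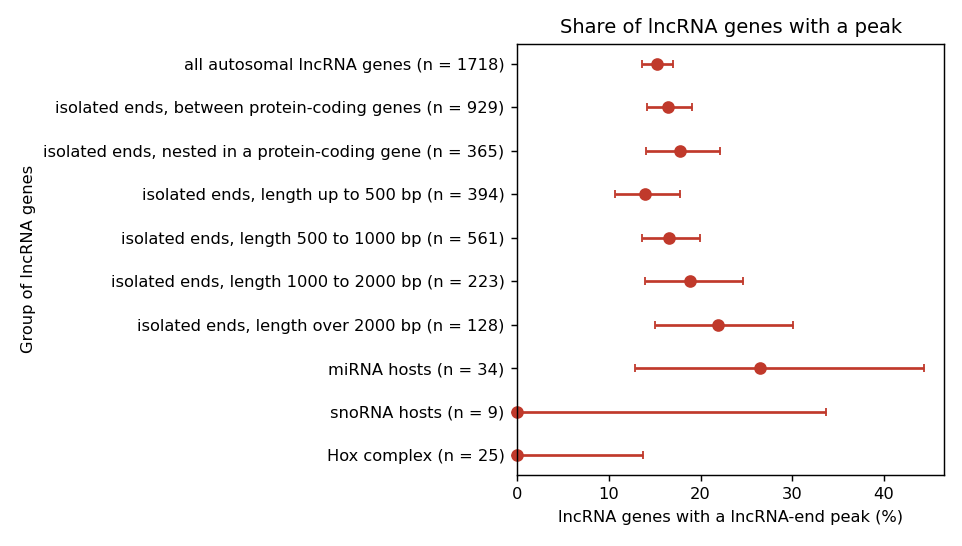
Percentage of lncRNA genes with at least 1 lncRNA-end peak, by location, length and group, with exact binomial intervals, where isolated ends are those with neither end within 500 bp of a protein-coding end. Most groups lie near the 15.3% of all autosomal lncRNA genes, microRNA hosts are at 26.5%, and the hosts of small nucleolar RNAs and the lncRNAs of the Hox complexes are at 0.

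Such peaks lay at 9 of the 34 lncRNA genes that contain a microRNA gene (26.5%, exact interval 12.9 to 44.4%, against 15.3% of all lncRNA genes). The interval contains the share of all lncRNA genes. These hosts were set by coordinates without strand, so they are not shown to be precursors. Some overlap and contain the same microRNAs, such as iab4 and iab8 of the Bithorax complex, so the 34 are not independent. The hosts are also longer, with a median of 6116.5 bp against 658 bp, and the part of length in this share was not tested. In replicate 1 their peaks often stood over a high local background, with low folds for their fragments. At lncRNA:CR45916, which contains mir-9a, a microRNA that limits the number of sensory organs, there was 1 peak at each end of the gene. The left one (3L:19562122-19562517) had 108 and 137 fragments over backgrounds of 65.3 and 64.5, and folds of 1.64 and 2.11. The right one (3L:19566221-19566415) had 79 and 95 fragments and folds of 1.64 and 1.81. In replicate 1 the left peak was at percentile 98.7 by fragments and 0.166 by fold, so fold and pileup rank it at opposite ends of that list.

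The peak at lncRNA:CR43651 (2R:9552529-9552669), which contains mir-14, a suppressor of cell death, had 115 and 105 fragments over 59.5 and 63.4, with folds of 1.92 and 1.65. The host of mir-8, lncRNA:CR43650, had a peak at its left end (2R:16828783-16829056) with 81 and 131 fragments and folds of 2.76 and 3.08, the highest folds of this group in both replicates. The host of mir-275, lncRNA:CR43857 (2L:7425392-7425953), had 2.52 and 2.37, and its summit also lay within 500 bp of mir-275 and mir-305. The remaining hosts were lncRNA:CR43314 of mir-bft (2.13 and 2.59), lncRNA:CR43626 of mir-282 (2.07 and 2.05), lncRNA:CR45920 of mir-316 (2.37 and 2.52) and lncRNA:CR43459 of mir-277 and mir-34 (1.82 and 1.99). The peak counted for lncRNA:CR45920 (3L:21667508-21667678) lay outside that gene, with its summit inside another lncRNA gene. Hsromega, the heat shock lncRNA that organises omega speckles in the nucleus and contains mir-4951, had a peak 781 bp from aus (3R:21317377-21317594) with 39 and 68 fragments and folds of 2.07 and 2.09. It was the lowest of the group by fragments in both lists.

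None of the 9 hosts of small nucleolar RNAs had such a peak, among them 7 Uhg genes. The interval of 0 to 33.6% contains the 15.3% of all lncRNA genes, so no depletion is shown. In replicate 2 alone, 2 of the 9 had a summit at an end (22.2%), against 38.0% of all lncRNA genes. Of the 9 hosts, Uhg2, Uhg3 and Uhg8 have both ends within 500 bp of a protein-coding gene end, where the rule admits few summits. None of the 25 lncRNAs of the Hox complexes had one either (interval 0 to 13.7%, against 15.3% of all lncRNA genes), including bxd, iab4 and iab8 of the Bithorax complex. These lncRNAs lie in regions of 338 and 316 kb and some overlap, so they are not independent and the interval is too narrow. It does not show a depletion. The complexes were not empty of the mark, with 17 shared summits between lab and Antp and 7 between Ubx and Abd-B, none of them within 500 bp of an end of these lncRNAs. In the deeper list of replicate 2, 2 of the 25 Hox lncRNAs and 652 of all 1718 (38.0%) had a summit at an end.

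Of the 45 lncRNA genes whose symbol is other than lncRNA:CR and a number, including some sisRNA genes with a CR number, 3 had such a peak (6.67%, with an upper limit of 18.3%, against 15.3% of all lncRNA genes, which lies below that limit). In single lists, 7 of the 45 had a replicate 1 summit at an end (15.6%) and 11 a replicate 2 summit (24.4%), against 22.5% and 38.0% of all lncRNA genes. The 3 genes with such a peak were Hsromega, lncRNA:Irar and sisRNA:4. The peak at lncRNA:Irar lay within InR, the insulin receptor gene (3R:21592005-21592514, folds 2.60 and 2.37). That at sisRNA:4 lay within dpn, the neural bHLH repressor gene deadpan (2R:8230515-8230793, folds 2.80 and 2.09). The summit at lncRNA:Irar lay 22 bp from its end and 22124 bp from the nearest end of InR. Named lncRNAs without one included noe, acal, cherub, CRG and sphinx.

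Some lncRNAs had several peaks. lncRNA:CR46084, in the cell polarity gene scrib, had 3, with folds of 2.32 and 2.20, 2.16 and 2.08, and 2.09 and 1.62. lncRNA:CR44605 also had 3, at 18003320, 18003838 and 18002892 on 2L, and shared the first and the last with the neighbouring lncRNA:CR44604. In 9 lncRNA genes longer than 1000 bp both ends had a separate peak. The longest of these was lncRNA:CR45224 (14499 bp) in SKIP, with folds of 2.26 and 2.07 at the right end and 2.23 and 1.94 at the left. At lncRNA:CR44596, 1414 bp long and near the wing POU-domain gene nub, peaks 6583 and 4992 bp from nub had 2.44 and 2.47, and 2.28 and 1.90.

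Some protein-coding genes that contain several of the 281 summits, and ftz-f1 with 1, were singled out after their values were seen. The chromatin remodeller gene kis, mbl and scrib contained 3 each. Other genes not described here, such as CG10211, Hph and vimar, contained 2. EcR, the ecdysone receptor gene, contained 2 at lncRNA:CR43904, 10071 and 10923 bp from its nearest end, with folds of 2.64 and 2.27, and 2.27 and 2.23. Both EcR peaks were high in fragments, with 113 and 109, and 97 and 107, but not by fold. By the lower of their 2 percentiles of fold they ranked 85 and 176 among the 281 peaks. CycE, the gene for the S-phase cyclin, contained 2 at lncRNA:CR44974, with folds of 2.94 and 2.67 for one and 3.49 and 1.98 for the other. In InR a second peak at lncRNA:CR44034 had 2.64 and 3.10. The nuclear receptor gene ftz-f1 contained 1 at lncRNA:CR45938 (3L:18753849-18754244) with 3.13 and 3.06, from 91 and 123 fragments. The lengths of these genes differ, with 162828 bp for mbl, 81215 bp for EcR and 20570 bp for CycE, and the part of length in these counts was not tested. The counts were also not set against all shared summits in the same genes, so they do not show an excess.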

How the data were processed

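The authors aligned and called peaks with Bowtie2 and MACS2 on dm6, per the submitters' processing notes. For versions, caller settings, duplicates and control: not given in the sources used here. Each replicate has its own deposited list of peaks. Its deposited fold is the ratio of summit pileup to background, its -log10 p-value and -log10 q-value are the authors' caller output, and the deposited score repeats that q-value, scaled and cut to whole numbers. These values were read within a list only.

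Pileup and background were recovered from fold and -log10 p as a whole number of fragments over a Poisson background, to within 0.001 of the -log10 p for all but 1 peak in each list. Each replicate 1 peak was paired with the overlapping replicate 2 peak of highest fold. Coordinates are dm6 and 1-based. Genes came from a RefSeq table of Release 6 without strand or exons, with lncRNA set by symbol or biotype. Scripts used Python 3.11.15, pandas 2.3.3 and scipy 1.17.1, and were tested on simulated data. Intervals are exact at 95% and cover counting error only. Named peaks were the 20 with the highest lower percentile, those at named, Hox or host lncRNAs, the widest, those at lncRNAs with several peaks (a selection) and those nearest the limits. Other genes were chosen after their values were seen. The peaks and lists were chosen with earlier results of these data known. Sequence features and a split by transcript start were planned but not analysed here, for want of a genome and strand.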

Additional observations from a re-analysis of the deposited data

Results flagged for a closer look

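The X chromosome lies outside the rule, and 6 shared peaks there met it otherwise, among 615 shared peaks and 241 lncRNA genes of the X. Their median folds were 2.56 and 2.54. The highest fold in replicate 1 was 4.27 at lncRNA:CR32636, 1440 bp from Prx2, where replicate 2 had 2.38. The highest in replicate 2 was 2.84 at lncRNA:CR43838, 585 bp from shakB, where replicate 1 had 2.90. The X peaks entered no comparison above.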

How the results depend on the processing

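Of 93 values under 14 alternatives, 66 stayed within 1.5 times the count, the spread between replicates or the interval of the share, and 27 did not. The number of peaks (281) was 168 with windows of 250 bp and 124 with equal numbers of top peaks. It was 339 with replicate 1 alone and 582 with replicate 2 alone, the larger count coming from the deeper list. The median fold of 2.46 in replicate 1 was 2.63 with a -log10 q of at least 5 and 2.77 with equal top peaks. It was 2.39 by replicate 1 alone. The 2.35 of replicate 2 was 2.47 and 2.63 under those thresholds and 2.16 by replicate 2 alone. The median width of 324 bp was 311 with windows of 1000 bp, 363 with the q threshold, 315 with summits within 250 bp, 342 with the replicate 2 summit or the whole interval, 442 with equal top peaks and 289 with replicate 1 alone. The percentage of lncRNA genes with a peak (15.3) was 9.95 and 19.97 with windows of 250 and 1000 bp, 10.9 with the q threshold, 12.6 with a reciprocal overlap of 50%, 18.0 with whole intervals and 6.93 with equal top peaks. It was 17.8 and 30.2 by replicate 1 or replicate 2 alone. The overlapping share of 82.9% was 66.7 with a reciprocal overlap of 50%, 77.0 with summits within 250 bp, 51.5 for replicate 2 peaks and 67.0 with equal top peaks. The share of summits inside protein-coding genes stayed between 27.4 and 36.4% under all 14. No paired analysis was possible because there is 1 group. No value was had for the overlapping share, or for the left-out list's fold and width, with 1 replicate. A lncRNA end without a peak may still carry signal under the threshold of the lists.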
